A study of Homo sapiens and Mus musculus with 36 samples.

Results

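Glutathione transferases (GST genes), aldo-keto reductases (AKR genes) and aldehyde dehydrogenases (ALDH genes) were followed through loss or inhibition of DOT1L in 1 human and 3 mouse carcinoma cell lines. Members were listed by gene symbol: GST with a class letter A, K, M, O, P, T or Z and a number, AKR with a number and ALDH with a number, in title case for mouse. This rule found 57 of the 26457 genes listed for the HuH-7 guide libraries (20 GST, 16 AKR and 21 ALDH genes). It found 40 of the 15899 genes listed for the HuH-7 drug libraries (13, 11 and 16) and 59 of the 22673 genes listed for the mouse libraries (21, 17 and 21). These families were taken up with earlier results of these data known, among them rises in Hep53.4, so their direction there is a description.

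DOT1L is the methyltransferase that marks a lysine in the globular part of histone H3 over transcribed genes, and the series measured gene expression by RNA sequencing in 36 libraries after DOT1L was lost or blocked. Of the lines, HuH-7 derives from a human liver carcinoma, Hepa1-6 and Hep53.4 from mouse liver carcinomas and LLC from a mouse lung carcinoma. HuH-7 cells carried sgRNA 1 or 2 against DOT1L (sg1, sg2; labelled knockout, KO) with IFN, against the guide sgNeg2 with IFN (labelled wild type), and the same 3 guides were sequenced without IFN, with 2 libraries per guide and setting. Hepa1-6, Hep53.4 and LLC cells carried sg1 or sg2 against Dot1l (KO), against sgNeg2, again with 2 libraries per guide. Unedited HuH-7 cells were treated for 7 days with EPZ-5676, a DOT1L inhibitor, against DMSO, with 3 libraries each. The labels give neither the type, dose and time of IFN nor whether a guide's cells were a pool or a clone, and nothing says that replicates came from separate cultures, so p-values measure the spread between these libraries, which may be technical. All sgNeg2 cells carry a guide too, and sg1 and sg2 were pooled as KO, so that n is 4 KO and 2 sgNeg2 libraries throughout, and 3 of each in the drug set.

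Glutathione transferases couple glutathione to electrophiles so that these can be exported, and the liver is one of their main sites. Aldo-keto reductases use NADPH to reduce aldehydes and ketones, including steroids and sugars, and aldehyde dehydrogenases use NAD or NADP to oxidise aldehydes to acids, among them acetaldehyde, retinal and the semialdehydes of amino acid breakdown. Many genes of the first 2 families are known targets of the transcription factor NRF2, which binds antioxidant response elements.

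The depth and identity of the libraries bear on all that follows. Total counts ran from 19580588 to 22649969 in HuH-7 without IFN, from 47594968 to 61227426 with IFN, from 48912627 to 58628528 in the drug libraries and from 42637155 to 59686358 in mouse. The HuH-7 libraries without IFN also held 0.827 to 1.00% histone-gene counts, against 0.0329 to 0.0472% with IFN and 0.0300 to 0.0344% in the drug libraries. Small RNA genes, such as small nuclear and nucleolar ones, took 1.88 to 3.42% of counts without IFN. Their share was 0.00890 to 0.0107% with IFN and 0.0155 to 0.0191% in the drug libraries. DOT1L RNA was at 35.7 ± 3.42 CPM (TMM-scaled counts relative to library size; SD) in KO and 74.3 ± 1.68 CPM in sgNeg2 HuH-7 cells, and it was lower in KO in every other line and setting, by 0.67 (Hep53.4) to 1.48 (Hepa1-6) on the log2 scale. Under EPZ-5676, which acts on the protein, DOT1L was at 49.3 ± 1.76 CPM, against 52.9 ± 1.41 CPM in DMSO. Of 12 hepatocyte markers (albumin, apolipoproteins, Hnf4a and others) all 12 reached 1 CPM in HuH-7, 9 in Hepa1-6, 8 in Hep53.4 and 3 in LLC, and in LLC the lung epithelial markers were near 0 as well (summed 2.03 to 2.74 CPM in KO, 1.23 to 1.40 CPM in sgNeg2). HuH-7 sg2 replicate 2 and the 2 Hepa1-6 sg1 libraries stood apart from their partners, with a chi-square per degree of freedom between replicates of 24.7 and 62.6, where other pairs gave 2.81 to 8.64. In cultured lines, fewer cells of a kind and less RNA per cell cannot be told apart.

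Members took a small part of the RNA: 0.568 to 0.591% of counts in Hep53.4, 0.823 to 0.987% in Hepa1-6, 0.303 to 0.311% in LLC, 0.453 to 0.492% in HuH-7 without IFN, 0.387 to 0.418% with IFN and 0.549 to 0.615% in the drug libraries. Per length, ALDH1A1, which oxidises retinal, led in HuH-7 with 1024 CPM per kb of exon in KO and 1100 CPM per kb in sgNeg2 cells. GSTP1, the pi-class transferase, followed with 552 and 622 CPM per kb, GSTO1 of the omega class with 125 and 149, and ALDH18A1, which makes proline from glutamate, with 114 and 142. Listed at 0 in all 12 HuH-7 guide libraries were AKR1E2, ALDH1A3, ALDH1L1 with its antisense genes ALDH1L1-AS1 and ALDH1L1-AS2, GSTM5, GSTT1, GSTT2 and GSTT2B. AKR1B15, AKR1C6P, AKR1C8P, AKR7A2P1, ALDH3B2, GSTA3, GSTA5, GSTM1 and GSTM2P1 stayed at or below 0.182 CPM there and did not pass the filter on low counts, which left 39 of 57 members. In the drug libraries, whose files list genes with at least 1 count in every library, 38 of 40 passed and AKR1C4 and GSTM2P1 did not.

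The AKR1C genes are shown here by the 250 bases before their start, because AKR1C1 and AKR1C2 rose together in HuH-7 and are near-identical copies. The sequences are those of RefSeq on GRCh38.p14, 5′ to 3′ on the gene's strand, at chr10:4963165-4963414 (plus) for AKR1C1, chr10:5003858-5004107 (minus) for AKR1C2 and chr10:5048531-5048780 (plus) for AKR1C3. Capitals mark bases inside the stretch aligned to AKR1C1 that differ from it or have no partner there.
AKR1C1: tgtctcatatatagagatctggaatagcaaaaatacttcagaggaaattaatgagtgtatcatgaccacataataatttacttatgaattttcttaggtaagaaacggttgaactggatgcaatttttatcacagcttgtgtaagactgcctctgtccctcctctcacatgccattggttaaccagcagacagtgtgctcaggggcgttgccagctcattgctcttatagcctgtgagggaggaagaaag
AKR1C2: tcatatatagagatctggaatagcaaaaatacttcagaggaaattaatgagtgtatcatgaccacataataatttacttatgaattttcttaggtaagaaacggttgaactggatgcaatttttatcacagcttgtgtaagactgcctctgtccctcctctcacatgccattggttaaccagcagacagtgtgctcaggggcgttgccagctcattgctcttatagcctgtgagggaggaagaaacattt
AKR1C3: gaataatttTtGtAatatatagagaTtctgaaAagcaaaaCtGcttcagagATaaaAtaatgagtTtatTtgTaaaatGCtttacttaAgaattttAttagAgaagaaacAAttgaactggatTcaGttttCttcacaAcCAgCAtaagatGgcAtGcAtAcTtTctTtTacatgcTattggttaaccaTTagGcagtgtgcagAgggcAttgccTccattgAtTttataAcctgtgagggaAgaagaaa
The AKR1C2 window shared 245 of its 250 bases with AKR1C1 as 1 unbroken run, and the AKR1C3 window printed here shared 194 of 235 aligned bases (82.6%). A second AKR1C3 start, at chr10:5094164-5094413 (plus), shared 189 of 228 (82.9%) and AKR1C4, at chr10:5196587-5196836 (plus), 176 of 214 (82.2%). With copies this alike, a read from one AKR1C gene can be counted for another, and which counting program, annotation and strand setting were used is not given in the sources. The same caution holds for the alpha and mu GST genes, Gstp1 with Gstp2, the mouse Akr1c genes and the pseudogene members.

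For GSTO1, a member that passed the test in all 3 HuH-7 comparisons of DOT1L loss or inhibition, the window at chr10:104254642-104254891 (plus) is shown with its matches to the antioxidant response element core in capitals.
GSTO1: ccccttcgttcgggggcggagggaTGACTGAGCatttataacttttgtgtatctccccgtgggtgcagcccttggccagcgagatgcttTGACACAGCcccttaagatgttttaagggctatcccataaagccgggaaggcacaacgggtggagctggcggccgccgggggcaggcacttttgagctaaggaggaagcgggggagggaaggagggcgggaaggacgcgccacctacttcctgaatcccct
The search used TGACNNNGC for the antioxidant and GCGTG for the xenobiotic response element, on both strands, in windows from 250 bases before to 50 bases after a start. RefSeq windows were found for 41 of 57 members. The antioxidant core lay in 7 of 51 member windows (13.7%), those of AKR7A2, GSTA4, GSTM1, GSTM5, GSTO1 and GSTP1, against 13.3% of all 35116 windows. The xenobiotic core lay in 17 of 51 (33.3%), against 36.5% of all. No AKR1C window held either set of letters, which describes these windows only.

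Hep53.4 was the setting with the most members that rose after Dot1l loss. Of 59 members, 45 passed the filter, 27 rose (60%) and 1 fell, where over all 12227 genes tested 19.4% rose and 19.7% fell by edgeR's quasi-likelihood test at an adjusted p below 0.05. The median log2 change of the tested members was 0.31, against 0.00 over all genes. By family, 13 of 18 GST, 8 of 11 AKR and 6 of 16 ALDH genes rose. The KO and sgNeg2 libraries of all 28 called members did not overlap. The same held for every called member in the other lines and settings, so it is not particular to Hep53.4. Its share over all genes was not computed. Of the 39 members with a mean of at least 1 CPM over the 6 libraries, 24 rose and 1 fell. The shares of all genes were not taken at this level. A low gene can pass the filter through its higher group alone, and this mean does not remove that.

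**Figure D1:**
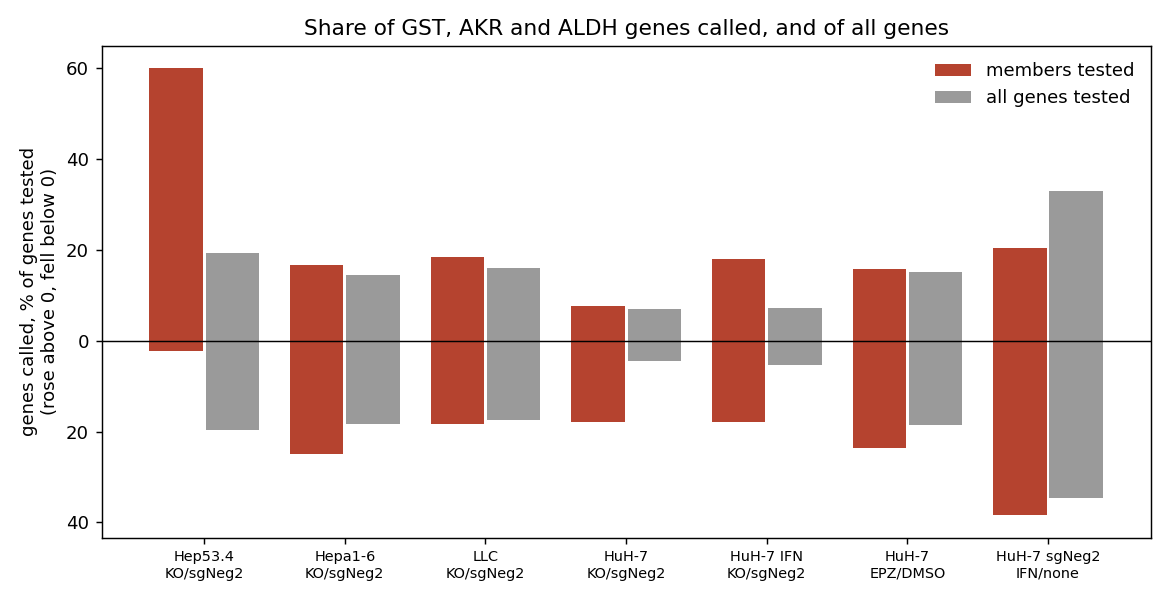
Bars show the percentage of tested genes that rose (above 0) or fell (below 0) at an adjusted p below 0.05 by edgeR's quasi-likelihood test, for GST, AKR and ALDH members (red) and for all genes tested (grey), in each comparison. In Hep53.4 60% of the members rose beside 19.4% of all genes, while in Hepa1-6 and LLC the shares of members that rose were 16.7% and 18.4% beside 14.5% and 16.0%.

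Among the Hep53.4 GST genes, 6 of 7 tested mu-class genes rose. Gstm7, a mu-class transferase, had 12.5 and 13.6 CPM with sg1 and 12.5 and 12.2 CPM with sg2, against 4.26 and 4.45 CPM in sgNeg2 cells. All 4 KO libraries were well above both sgNeg2 libraries, a log2 change of 1.55 ± 0.11 (SE; edgeR adjusted p = 6.49e-13). Gstm1, the mu-class gene with the highest count, had 450 and 464 CPM with sg1 and 419 and 430 CPM with sg2, against 347 and 351 CPM in sgNeg2 cells (log2 change 0.34 ± 0.03, edgeR adjusted p = 6.47e-10). Its KO libraries again lay above both controls, by a much smaller margin. Gstm6 averaged 1.76 ± 0.0829 CPM in KO and 0.808 ± 0.139 CPM in sgNeg2 cells (log2 change 1.12), and Gstm4 (0.35), Gstm5 (0.31) and Gstm2 (0.24) rose as well. Gstm3 had 0.141 to 0.285 CPM in KO and 0.0684 to 0.0747 CPM in sgNeg2 cells and was not called. The 6 mu rises ran from 0.24 to 1.55, and reads may be shared between these genes.

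The other Hep53.4 GST classes also held rises, most of them at low levels. Gsta4, whose enzyme clears the lipid peroxidation product hydroxynonenal, had 3.22 and 2.50 CPM with sg1 and 2.91 and 2.73 CPM with sg2, against 1.66 and 1.45 CPM in sgNeg2 cells (log2 change 0.87 ± 0.20, edgeR adjusted p = 0.000681). Gstt3 of the theta class averaged 2.63 ± 0.587 CPM in KO and 1.63 ± 0.228 CPM in sgNeg2 cells (log2 change 0.70). Both genes stayed under 4 CPM in all 6 libraries, and their groups did not overlap. The omega-class genes Gsto2 and Gsto1 rose by 0.54 and 0.31. Gsto1 is the most abundant GST of this line by counts and had 660 and 656 CPM with sg1 and 631 and 619 CPM with sg2, against 517 and 520 CPM in sgNeg2 cells. Gstp1 (300 ± 6.91 CPM in KO, 289 ± 8.70 CPM in sgNeg2), Gstp2 and Gstz1 were not called. Near the floor, Gstt1 averaged 0.782 ± 0.189 CPM in KO and 0.163 ± 0.0860 CPM in sgNeg2 cells (log2 change 2.25, and 2.90 without sgNeg2 replicate 1). Gsta1 had 1.13 ± 0.622 CPM and 0.362 ± 0.142 CPM (log2 change 1.64), and its call ended without sgNeg2 replicate 1 (1.30, edgeR adjusted p = 0.0833). Gsta2 had 43 counts over the 4 KO libraries and none in either sgNeg2 library, which makes it at least 7.78-fold higher in KO against a floor of 3 counts over the group (counting error only). Gsta3 was not called, Gstk1 and Gstt2 had counts in 1 library each, and Gstt4 was listed at 0.

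Hep53.4 AKR genes that rose were led by members of the mouse Akr1b and Akr1c clusters. Akr1b7, an aldose reductase-like enzyme first known from the vas deferens and adrenal of mice, had 16.0 and 15.8 CPM with sg1 and 14.8 and 14.3 CPM with sg2, against 5.10 and 4.31 CPM in sgNeg2 cells. Every KO library held more than 2 times the higher control, a log2 change of 1.70 ± 0.10 (edgeR adjusted p = 5.29e-14). Akr1c18, the mouse 20-alpha-hydroxysteroid dehydrogenase that inactivates progesterone, had 35.9 and 35.7 CPM with sg1 and 38.1 and 37.8 CPM with sg2, against 12.9 and 12.6 CPM in sgNeg2 cells (log2 change 1.53 ± 0.07, edgeR adjusted p = 2.08e-17). Replicates of both guides lay close together and far from the controls. Akr1c19 averaged 20.9 ± 1.92 CPM in KO and 10.3 ± 0.122 CPM in sgNeg2 cells (log2 change 1.02 ± 0.09). Akr1b8, which reduces aldehydes and retinal, averaged 182 ± 3.52 CPM and 130 ± 2.02 CPM (log2 change 0.49 ± 0.03). Smaller rises were measured for Akr7a5 (0.27), Akr1c12 (0.21), Akr1b10 (0.20) and Akr1a1 (0.08), the last a broad aldehyde reductase at 677 CPM in KO and 639 CPM in sgNeg2 cells. Akr1c13, Akr1c14 and Akr1e1 were not called, with log2 changes of 0.05, -0.04 and 0.10. Akr1b3, Akr1c20, Akr1c21, Akr1c6, Akr1cl and Akr1d1 were at or near 0 and not tested.

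Among the Hep53.4 ALDH genes, one rise was far larger than the rest. Aldh1a7, a rodent relative of Aldh1a1 with little activity on retinal, had 12.4 and 12.2 CPM with sg1 and 9.99 and 11.4 CPM with sg2, against 2.09 and 2.40 CPM in sgNeg2 cells (log2 change 2.36 ± 0.13, edgeR adjusted p = 7.07e-15). The lowest KO library was above 4 times the higher sgNeg2 library. Aldh1a1 itself, at much higher counts, had 1400, 1409, 1371 and 1366 CPM in KO and 1398 and 1390 CPM in sgNeg2 cells, and its groups overlapped (log2 change -0.01 ± 0.02). Aldh3a1, which oxidises aromatic and medium-chain aldehydes, averaged 14.1 ± 0.835 CPM in KO and 9.52 ± 0.911 CPM in sgNeg2 cells (log2 change 0.57 ± 0.09). Aldh5a1, of GABA breakdown, rose by 0.40, Aldh1l2, of mitochondrial folate metabolism, by 0.31, Aldh3b1 by 0.15 and Aldh9a1 by 0.12. The one fall was Aldh18a1, with 241 and 243 CPM with sg1 and 248 and 235 CPM with sg2, against 303 and 310 CPM in sgNeg2 cells (log2 change -0.34 ± 0.03, edgeR adjusted p = 3.71e-11). Aldh2, the mitochondrial acetaldehyde dehydrogenase, averaged 1131 ± 32.8 CPM in KO and 1140 ± 6.49 CPM in sgNeg2 cells and was not called, nor were Aldh1a3, Aldh1b1, Aldh3a2, Aldh4a1, Aldh6a1, Aldh7a1 and Aldh16a1. Aldh1a2, Aldh1l1, Aldh3b2, Aldh3b3 and Aldh8a1 did not pass the filter.

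**Figure D2:**
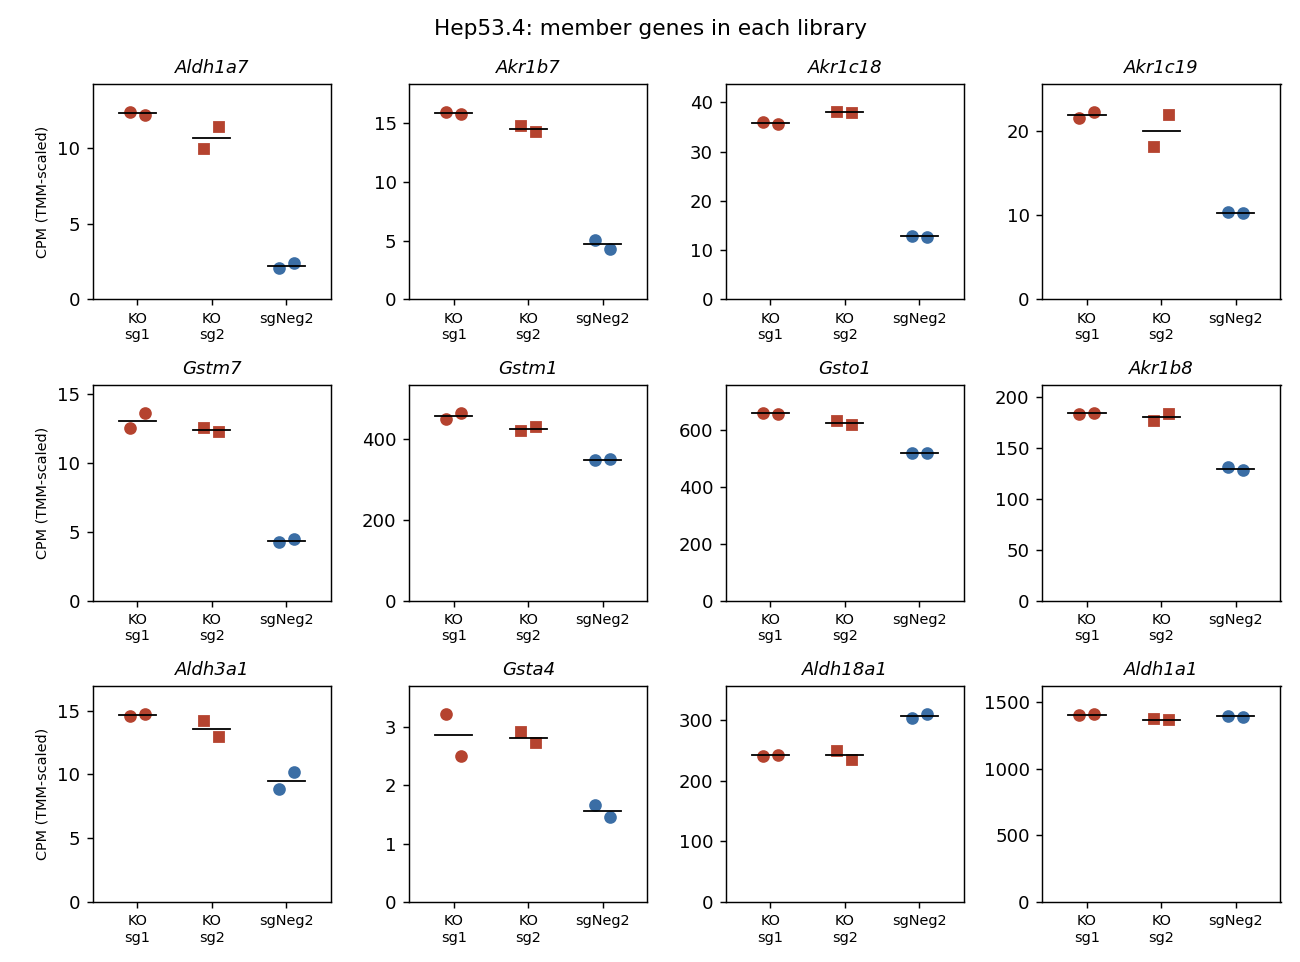
Each panel plots TMM-scaled CPM of 1 member in the 6 Hep53.4 libraries, with KO (red, sg1 circles, sg2 squares) left of sgNeg2 (blue circles), and lines at the mean of each pair. Aldh1a7, Akr1b7, Akr1c18, Akr1c19 and Gstm7 lay at 2 or more times the sgNeg2 level in nearly every KO library, Gstm1 and Gsto1 lay above it by a small step, Aldh18a1 lay below it and Aldh1a1 overlapped.

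Size and starting level went together in Hep53.4, as a description with the sgNeg2 level on both sides of the comparison. Of 8 tested members under 1 CPM in sgNeg2 cells 4 rose, with a median log2 change of 1.29 and values from -0.19 to 6.47. Of 16 tested members at 1 to 20 CPM in sgNeg2 cells 12 rose, with a median log2 change of 0.55 and a largest of 2.36. Of 12 members at 20 to 100 CPM 6 rose, none by more than 0.31, and of 9 members at 100 CPM or more 5 rose by at most 0.49 and 1 fell. All genes were not read at the same levels, so whether members differ here from other genes of their level was not tested. The count of 28 ran from 22 without sgNeg2 replicate 2 to 28 over the 6 libraries left out in turn. Without sgNeg2 replicate 2, the rises of Gstt3 (0.56), Gstm2 (0.17), Akr1b10 (0.13), Aldh9a1 (0.10), Aldh3b1 (0.19) and Akr1a1 (0.09) were no longer called, and that of Gsto2 was 0.35 and still called. Without sgNeg2 replicate 1, those of Gsta1 (1.30), Aldh5a1 (0.27), Aldh3b1 (0.11) and Akr1a1 (0.07) were not called, and without sg2 replicate 1 neither Aldh3b1 (0.12) nor Akr1b10 (0.18) was. The hepatocyte list, of which 2 of 9 tested genes rose and 3 fell, summed to 1002 to 1074 CPM in KO and 1100 to 1109 CPM in sgNeg2 cells. The endothelial list, mainly Cdh5, summed to 27.5 to 31.5 CPM in KO and 47.6 to 48.6 CPM in sgNeg2 cells. Of its 4 tested genes Pecam1 rose and Cdh5 fell, with a median log2 change of 0.41. The part of these lists in the result was not tested.

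Hepa1-6 cells had both rises and falls among the members. Of 59 members 48 passed the filter, 8 rose and 12 fell, where 14.5% and 18.3% of all 12493 genes tested rose and fell, beside 16.7% and 25% of the members. The median log2 change was 0.00 over the members and 0.01 over all genes. By family, 2 of 18 GST genes rose and 6 fell, 3 of 14 AKR genes rose and 1 fell, and 3 of 16 ALDH genes rose and 5 fell.

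The largest GST falls in Hepa1-6 were those of Gstm1 and Gsta3. Gstm1 had 1453 and 1436 CPM with sg1 and 1276 and 1233 CPM with sg2, against 2162 and 2193 CPM in sgNeg2 cells. No KO library came near the controls, and the log2 change was -0.69 ± 0.06 (edgeR adjusted p = 1.99e-05). Gsta3, an alpha-class transferase of mouse liver, averaged 261 ± 10.1 CPM in KO and 336 ± 6.32 CPM in sgNeg2 cells (log2 change -0.37 ± 0.04). Gstm2 (-0.34), Gstt1 (-0.24), Gstm4 (-0.23) and Gsta4 (-0.19) fell by less, while Gsto2 (0.59) and Gsto1 (0.12) rose. Gstm7, which rose in Hep53.4, averaged 21.9 ± 4.27 CPM in KO and 21.5 ± 2.79 CPM in sgNeg2 cells and was not called. Gstp1, at 643 ± 12.6 CPM in KO and 676 ± 3.94 CPM in sgNeg2 cells, was not called either.

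Hepa1-6 AKR and ALDH genes moved in both directions. Akr1c18 averaged 29.8 ± 1.51 CPM in KO and 21.7 ± 0.341 CPM in sgNeg2 cells (log2 change 0.46 ± 0.08, edgeR adjusted p = 6.12e-05), and Akr1e1 rose by 0.31. Akr1cl rose at a very low level, with 1.43 ± 0.309 CPM in KO and 0.253 ± 0.177 CPM in sgNeg2 cells (log2 change 2.45, and 3.45 without sgNeg2 replicate 1). Akr1a1 averaged 836 ± 18.7 CPM in KO and 843 ± 8.66 CPM in sgNeg2 cells and was not called. Akr1b7, Akr1c12, Akr1c13 and Akr1c19 were also not called, with log2 changes from -0.19 to 0.07. Aldh1a1 had 1116 and 1089 CPM with sg1 and 1129 and 1149 CPM with sg2, against 1667 and 1671 CPM in sgNeg2 cells (log2 change -0.57 ± 0.03, edgeR adjusted p = 1.97e-11). Aldh2 averaged 797 ± 25.6 CPM and 1050 ± 20.3 CPM (-0.40), and Aldh4a1 of proline breakdown (-0.33), Aldh3a2, the fatty aldehyde dehydrogenase (-0.30), and Aldh1l1 (-0.19) also fell. Aldh1a7 rose by 0.37 ± 0.06 (43.0 ± 1.49 CPM in KO, 33.3 ± 0.837 CPM in sgNeg2), Aldh5a1 by 0.33 and Aldh3a1 by 0.32.

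Several of the smaller Hepa1-6 calls ended when a single library was left out. Leaving out either sgNeg2 library kept a single control, and calls over all genes then also became fewer. Without sgNeg2 replicate 1 or without replicate 2, the calls of Gsto1 (0.13, 0.11), Gsto2 (0.58, 0.60), Akr1b8 (-0.08, -0.10), Aldh1l1 (-0.21, -0.18) and Aldh3a1 (0.36, 0.29) ended. That of Akr1e1 ended without replicate 1 (0.20) and that of Aldh5a1 without replicate 2 (0.21). Leaving out sg1 replicate 2 ended Akr1b8 (-0.08), sg1 replicate 1 ended Aldh3a1 (0.28), sg2 replicate 1 ended Aldh3a1 (0.25) and Akr1b8 (-0.09), and sg2 replicate 2 ended Gsto2 (0.49) and Akr1b8 (-0.09). Without sg1 replicate 1 or 2, the libraries that stood apart, 19 members were called each time, against 20 with all. The hepatocyte markers moved with the falls: 8 of 11 tested fell, and the list summed to 19343 to 19849 CPM in KO and 27328 to 27482 CPM in sgNeg2 cells. The part of this in the members' falls was not tested.

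LLC cells, which are not of liver origin, lacked many members. Only 38 of 59 passed the filter, and Aldh1a1, Aldh1a7, Akr1b7, Akr1c18, Akr1c19, Gsta1 and Gstm4 were at or near 0 in all libraries. Of those tested 7 rose and 7 fell, where 16% and 17.5% of all 12225 genes tested rose and fell. The medians were 0.02 over the members and 0.01 over all genes. Of the 29 members with a mean of at least 1 CPM, 5 rose and 7 fell, and all genes were not read at this level. By family, 3 of 15 GST genes rose and 3 fell, 2 of 10 AKR genes rose, and 2 of 13 ALDH genes rose and 4 fell.

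Gstk1, the mitochondrial and peroxisomal kappa-class transferase, had 4.54 and 4.45 CPM with sg1 and 4.29 and 4.45 CPM with sg2 in LLC, against 1.83 and 1.18 CPM in sgNeg2 cells (log2 change 1.57 ± 0.18, edgeR adjusted p = 1.57e-06). The KO libraries were nearly equal and all above the controls, and in Hepa1-6 and Hep53.4 the gene was at or near 0. Gstm6 (1.52 ± 0.297 CPM in KO, 0.480 ± 0.173 CPM in sgNeg2; 1.67), Aldh3a1 (1.22 ± 0.228 and 0.368 ± 0.217 CPM; 1.75) and Akr1cl (0.831 ± 0.154 and 0.226 ± 0.0353 CPM; 1.86) rose, with under 1 CPM in sgNeg2 cells. The Aldh3a1 change was 2.50 without sgNeg2 replicate 1 and 1.22 without replicate 2. Akr1b8 rose at a higher level, with 159 ± 2.32 CPM in KO and 124 ± 3.65 CPM in sgNeg2 cells (log2 change 0.35 ± 0.04). Aldh3b1 (0.28) and Gsto1 (0.09) rose slightly. The falls were modest: Aldh1l2 averaged 88.7 ± 4.35 CPM in KO and 112 ± 2.23 CPM in sgNeg2 cells (log2 change -0.34 ± 0.04). Gstz1, of tyrosine breakdown (-0.26), Aldh2 (-0.25), Aldh5a1 (-0.23), Gstm2 (-0.21), Aldh18a1 (-0.16) and Gstp1 (-0.12) followed. Leaving out the first or the second sgNeg2 library ended the calls of Gstp1 (-0.12, -0.13) and Gsto1 (0.11, 0.08). So did leaving out the first or the second sg1 library, with -0.10 and -0.10 for Gstp1 and 0.09 and 0.10 for Gsto1, and Gsto1 was also not called without sg2 replicate 2 (0.09). Aldh5a1 lost its call without sgNeg2 replicate 1 (-0.18) or sg1 replicate 1 (-0.19), and Aldh3b1 without sgNeg2 replicate 2 (0.26). Fibroblast markers, mainly Col3a1, summed to 1542 to 1574 CPM in KO and 1109 to 1131 CPM in sgNeg2 cells, and their part was not tested.

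**Figure D3:**
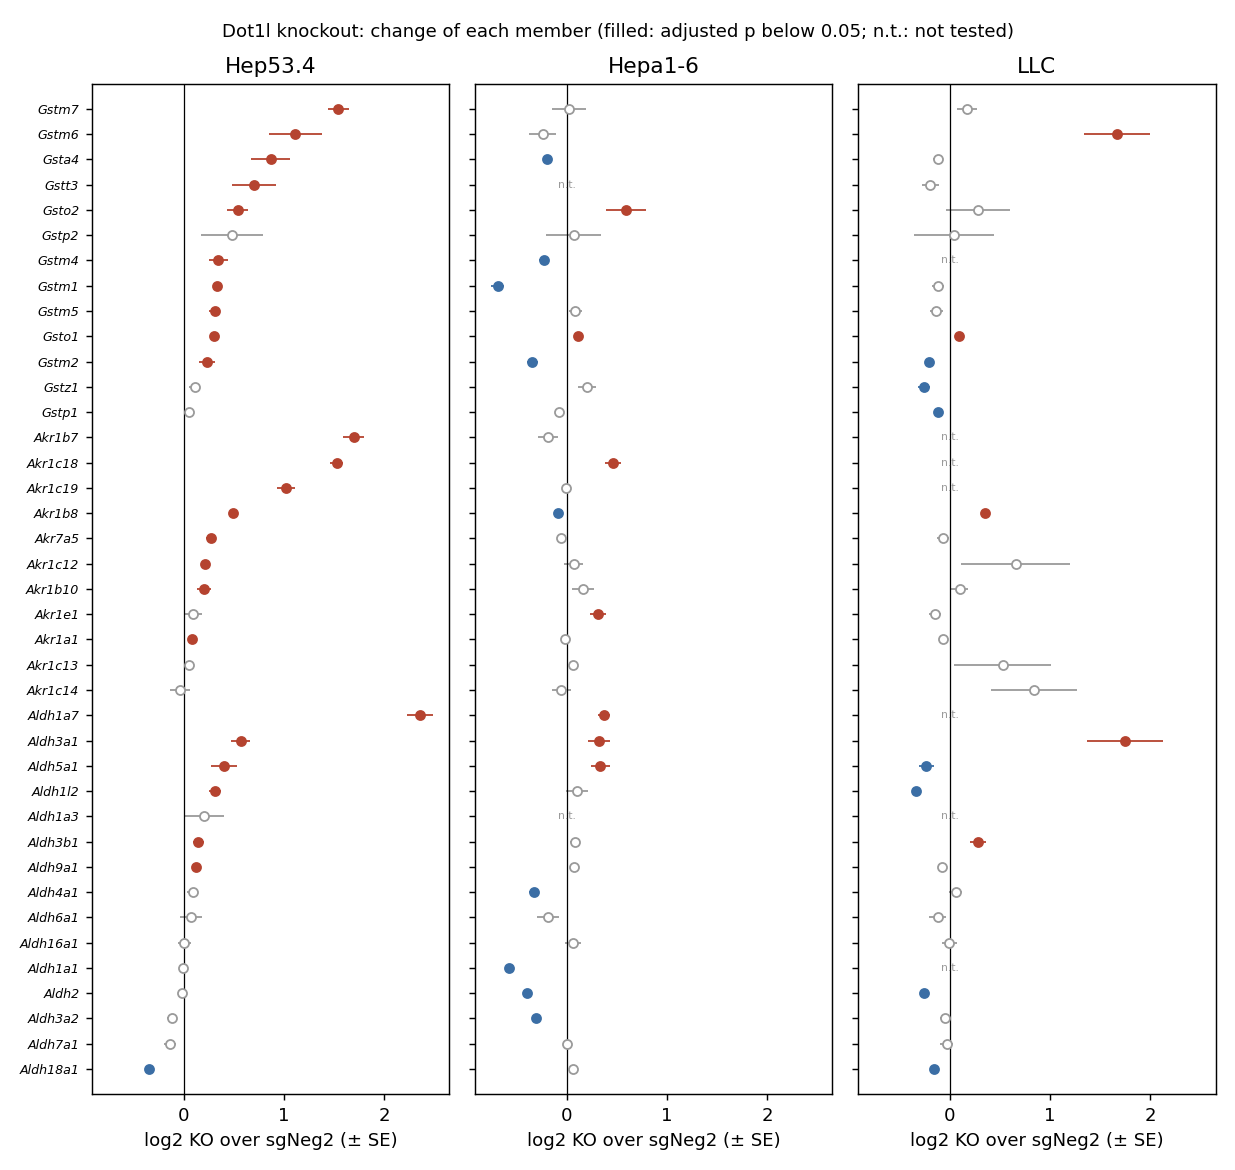
Points show the log2 change of KO over sgNeg2 with its standard error for the members with a mean of at least 1 CPM in Hep53.4, in Hep53.4, Hepa1-6 and LLC, with rises in red, falls in blue and uncalled changes open. In Hep53.4 the points lie mostly to the right of 0, up to 2.36 for Aldh1a7, while in Hepa1-6 Gstm1 (-0.69) and Aldh1a1 (-0.57) lie to the left.

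The differences between lines were tested in 1 fit of the 18 mouse libraries, in which both differences use the same Hep53.4 libraries. For Hep53.4 minus Hepa1-6, 22 of 53 tested members had a more positive KO effect in Hep53.4 and 3 a more negative one, beside 14.5% and 10.2% of all 14195 genes tested. For Hep53.4 minus LLC the counts were 17 and 5 of 53, beside 13.4% and 15.8% of all genes. Of members whose higher group mean (KO or sgNeg2) was at least 1 CPM in both lines, 18 and 1 passed against Hepa1-6, and 15 and 2 against LLC. A gene can reach this level through 1 group alone. Gstm6 did so in Hep53.4 (1.88 CPM in KO, 0.862 CPM in sgNeg2) and Aldh3a1 in LLC (1.16 and 0.343 CPM). The all-gene shares above were taken without this level. The remaining calls rested on lines where the gene was near 0, such as Gstt1, Gsta2, Gsta3 and Gstm3 in Hep53.4.

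Against Hepa1-6, the largest differences with counts in both lines were those of Aldh1a7 (2.00 ± 0.17), Akr1b7 (1.90 ± 0.19), Gstm7 (1.54 ± 0.18), Gstm6 (1.37), Akr1c18 (1.08 ± 0.11), Gsta4 (1.08 ± 0.12), Akr1c19 (1.04 ± 0.09) and Gstm1 (1.04 ± 0.10), all on the log2 scale and in the positive direction. For Gstm1 this set a rise in Hep53.4 beside a fall in Hepa1-6, and for Aldh1a1 (0.58) and Aldh2 (0.40) a fall in Hepa1-6 beside no call in Hep53.4. Against LLC, Gstm7 differed by 1.35 ± 0.18, Gsta4 by 0.97 ± 0.13, Gstt3 by 0.88, Aldh1l2 by 0.63 ± 0.09, Aldh5a1 by 0.62 and Gstm1 by 0.44 ± 0.10. Aldh18a1 differed the other way in both, by -0.39 ± 0.05 against Hepa1-6 and -0.21 ± 0.05 against LLC. Aldh3a1 differed by -1.21 against LLC, where it was at about 1 CPM in KO cells and below that in sgNeg2 cells. That last call ended without LLC sgNeg2 replicate 2 (-0.68), and moved to -1.94 without replicate 1. The call of Gstt3 ended without Hep53.4 sgNeg2 replicate 2 (0.74) or LLC sgNeg2 replicate 2 (0.85).

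In HuH-7, AKR1C1 and AKR1C2 of 4 tested AKR1C genes were higher and 6 of 16 tested ALDH genes lower after DOT1L loss. Without IFN, 39 of 57 members passed the filter, 3 rose and 7 fell, where 6.95% and 4.38% of all 16448 genes tested rose and fell. The shares were 7.69% and 17.9% of the members. The median log2 change was -0.03 over the members and 0.00 over all genes. Among 12 GST genes 1 fell, among 11 AKR genes 2 rose, and among 16 ALDH genes 1 rose and 6 fell.

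The 2 AKR rises without IFN were AKR1C1 and AKR1C2, hydroxysteroid dehydrogenases that also reduce aldehydes from lipid peroxidation. AKR1C1 had 101 and 100.4 CPM with sg1 and 116 and 113 CPM with sg2, against 69.1 and 72.1 CPM in sgNeg2 cells, a log2 change of 0.61 ± 0.11 (edgeR adjusted p = 0.00221). The groups did not overlap, and without sgNeg2 replicate 1 the change was 0.58 and just missed the test (edgeR adjusted p = 0.0529). AKR1C2 had 7.83 and 8.80 CPM with sg1 and 7.97 and 7.26 CPM with sg2, against 2.63 and 2.60 CPM in sgNeg2 cells (log2 change 1.61 ± 0.18, edgeR adjusted p = 9.27e-05). Each KO library held more than 2 times the controls. AKR1C3, which makes testosterone and prostaglandin F, averaged 3.26 ± 0.298 CPM in KO and 1.93 ± 0.197 CPM in sgNeg2 cells, and AKR1B10, a retinal and aldehyde reductase raised in many hepatocellular carcinomas, 2.49 ± 0.269 CPM and 0.965 ± 0.401 CPM. Neither passed the test (edgeR adjusted p = 0.0562 and 0.0547). AKR1C4 had 0.319 to 0.667 CPM in KO and 0.0426 to 0.129 CPM in sgNeg2 cells and was not called.

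Without IFN, 6 ALDH genes fell and 1 rose. ALDH5A1, succinic semialdehyde dehydrogenase, had 40.1 and 42.4 CPM with sg1 and 40.2 and 42.5 CPM with sg2, against 67.3 and 64.9 CPM in sgNeg2 cells (log2 change -0.68 ± 0.08, edgeR adjusted p = 0.000102). ALDH6A1, of valine breakdown, had 80.2 and 75.7 CPM with sg1 and 80.9 and 90.3 CPM with sg2, against 130 and 139 CPM (log2 change -0.72 ± 0.10, edgeR adjusted p = 0.000446). All KO libraries lay below both controls for both genes. ALDH4A1 (4.35 ± 0.466 CPM in KO, 7.95 ± 0.639 CPM in sgNeg2; -0.87), ALDH9A1, of carnitine synthesis (-0.48), ALDH18A1 (-0.32) and ALDH2 (-0.32) fell too. ALDH8A1, of kynurenine breakdown, rose, with 8.87 ± 0.833 CPM in KO and 5.37 ± 0.472 CPM in sgNeg2 cells (0.72 ± 0.18). GSTO1 was the one GST call, at 163 ± 12.1 CPM and 194 ± 1.99 CPM (-0.25). Without sgNeg2 replicate 1, the calls of ALDH8A1 (0.63), ALDH4A1 (-0.79), ALDH18A1 (-0.28), ALDH2 (-0.30) and GSTO1 (-0.26) ended. Without sgNeg2 replicate 2, those of ALDH8A1 (0.77), ALDH2 (-0.38) and GSTO1 (-0.29) ended. Each of these fits kept a single untreated sgNeg2 library as control, and calls over all genes also became fewer. GSTO1 also lost its call without sg1 replicate 1 (-0.27), sg1 replicate 2 (-0.27) or sg2 replicate 2 (-0.25). Without sg2 replicate 2, the library that stood apart, 10 members were called, as with it. That library had 335 CPM of GSTP1, where the other 3 KO libraries had 577 to 623 CPM and sgNeg2 cells 602 and 593 CPM. Of the 12 hepatocyte markers 7 fell and 1 rose, and the list summed to 13758 to 15817 CPM in KO and 16887 to 16946 CPM in sgNeg2 cells, and its part was not tested.

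With IFN, AKR1C1, AKR1C2 and AKR1C3 rose in KO cells and AKR1C4 was not called. Of 39 tested members 7 rose and 7 fell, where 7.11% and 5.27% of all 16448 genes tested rose and fell. The medians were -0.09 over the members and -0.06 over all genes. Of the 29 members with a mean of at least 1 CPM, 5 rose and 7 fell, and all genes were not read at this level. In a fit of the 6 IFN libraries alone 6 members were called, 4 rises and 2 falls, where 5.35% of all genes rose and 1.22% fell. By family, 1 GST gene rose and 2 fell, 4 AKR genes rose, and 2 ALDH genes rose and 5 fell. AKR1C1 had 113 and 116 CPM with sg1 and 133 and 134 CPM with sg2, against 28.3 and 34.3 CPM in sgNeg2 cells (log2 change 1.99 ± 0.11, edgeR adjusted p = 1.41e-07). AKR1C2 had 10.9 and 11.5 CPM with sg1 and 10.95 and 11.8 CPM with sg2, against 1.70 and 0.993 CPM (log2 change 3.07 ± 0.19, edgeR adjusted p = 3.04e-07). In both, KO libraries sat several-fold above the controls. AKR1C3 averaged 1.23 ± 0.261 CPM in KO and 0.420 ± 0.0748 CPM in sgNeg2 cells (1.54 ± 0.27). AKR1C4 had 0.0400 to 0.350 CPM in KO and 0.0946 to 0.410 CPM in sgNeg2 cells, and the groups overlapped. AKR1B10 averaged 0.495 ± 0.0440 CPM in KO and had 0.142 and 0 CPM in sgNeg2 cells. Its fitted change of 2.80 was 1.78 and not called without sgNeg2 replicate 2, and 7.14 without replicate 1.

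Among the other IFN-treated members, ALDH8A1 averaged 4.77 ± 0.671 CPM in KO and 1.85 ± 0.408 CPM in sgNeg2 cells (log2 change 1.36 ± 0.18, edgeR adjusted p = 0.000246), and ALDH5A1 12.3 ± 0.801 CPM and 18.8 ± 0.0534 CPM (-0.62 ± 0.08). The level of ALDH8A1 was higher and that of ALDH5A1 lower in every KO library. ALDH1A1 had 1676 and 1636 CPM with sg1 and 1443 and 1418 CPM with sg2, against 1969 and 1992 CPM in sgNeg2 cells (-0.36 ± 0.08). GSTA1, the main alpha-class transferase of human liver, averaged 11.7 ± 0.520 CPM and 18.4 ± 0.771 CPM (-0.65). ALDH6A1 (-0.41), ALDH9A1 (-0.41), GSTO1 (-0.32) and ALDH18A1 (-0.30) fell, and GSTM3 (1.37) and ALDH1L2 (0.38) rose. Without IFN sgNeg2 replicate 1 or without replicate 2, the calls of GSTA1 (-0.69, -0.60), GSTM3 (1.44, 1.31), GSTO1 (-0.33, -0.31), ALDH1A1 (-0.37, -0.35), ALDH6A1 (-0.40, -0.41), ALDH9A1 (-0.39, -0.42) and ALDH18A1 (-0.32, -0.29) ended, and that of ALDH1L2 without replicate 2 (0.31). Each of these fits kept a single IFN sgNeg2 library as control, and calls over all genes also became fewer. Hepatocyte markers summed to 9005 to 9669 CPM in KO and 9978 to 10088 CPM in sgNeg2 cells with IFN. Of the 12 markers APOA2 and AFP rose, APOA1 and HNF4A fell and the rest were not called. The part of these markers was not tested.

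The difference between the KO effects with and without IFN was itself called for 2 members, both positive, and for none in the other direction, where 0.207% and 0.298% of all genes tested passed. These were AKR1C1 (1.38 ± 0.15 on the log2 scale, edgeR adjusted p = 0.000636) and AKR1C2 (1.46 ± 0.25, edgeR adjusted p = 0.0222). AKR1C3 (0.78 ± 0.35, edgeR adjusted p = 0.369) and AKR1C4 (-2.70 ± 1.21, edgeR adjusted p = 0.368) did not pass. AKR1C1 was at 124 ± 10.8 CPM in KO with IFN and 108 ± 8.11 CPM in KO without it, and at 31.3 ± 4.27 CPM in sgNeg2 cells with IFN and 70.6 ± 2.13 CPM without it. The sgNeg2 level thus differed more between settings than the KO level did. Libraries with and without IFN also differ in the depth and the histone and small RNA content given above, from which IFN cannot be told apart. The call of AKR1C2 ended without sgNeg2 replicate 1 (1.45), sgNeg2 replicate 2 (1.57) or IFN sgNeg2 replicate 2 (1.12). The values with and without IFN share libraries with the KO effects given above.

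**Figure D4:**
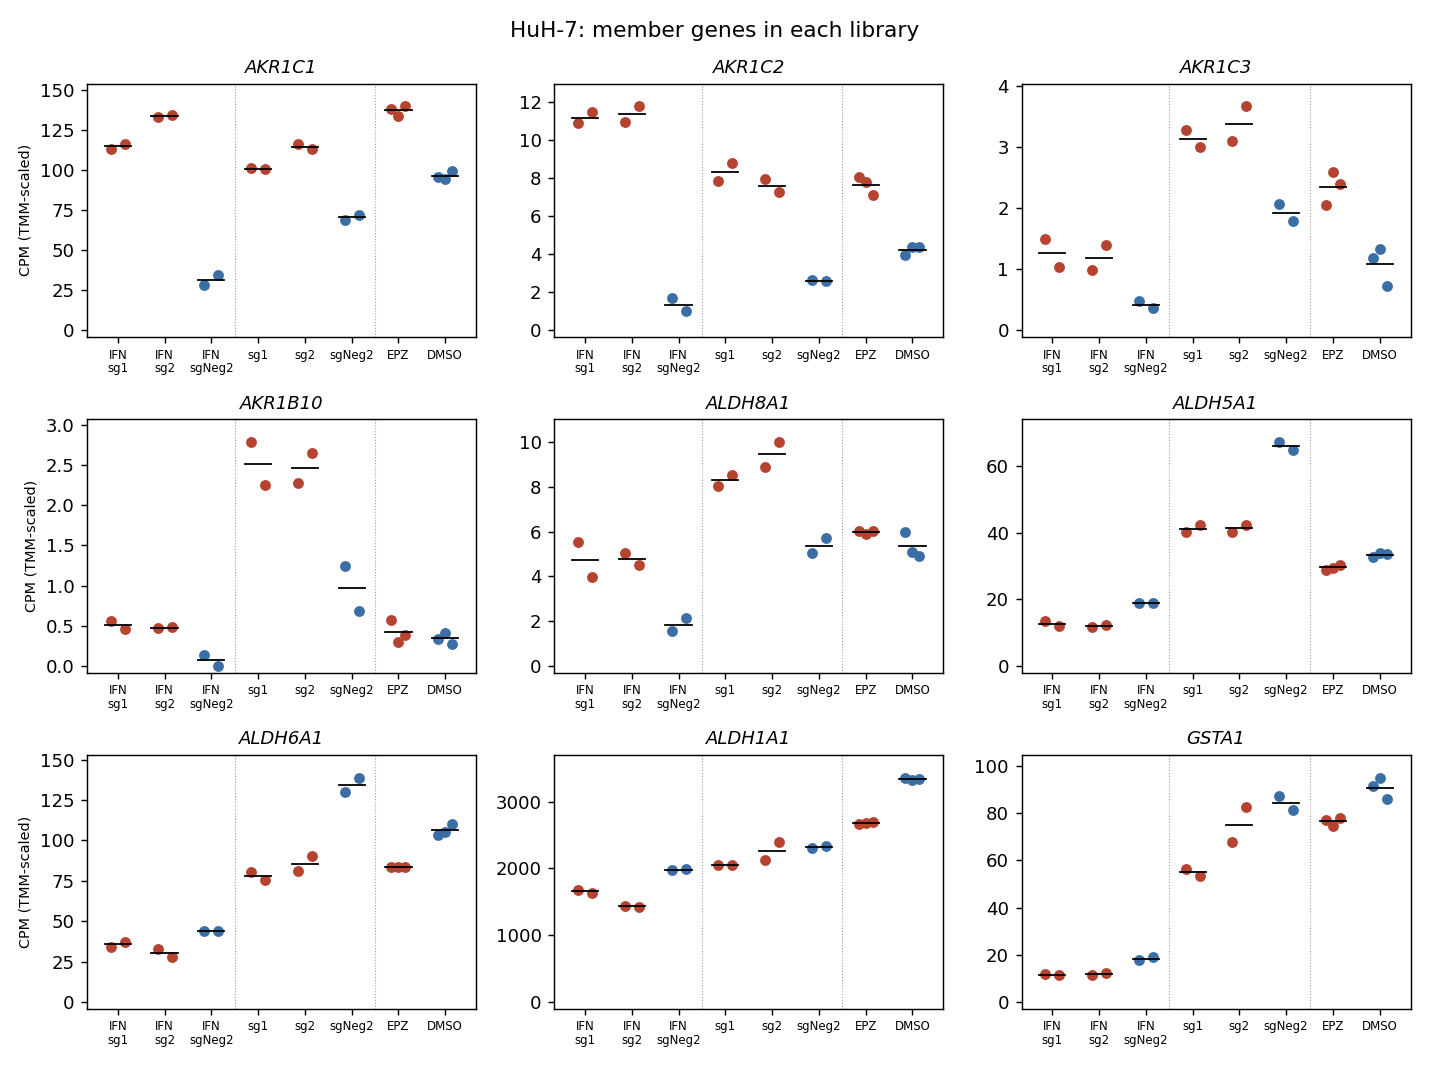
Panels plot TMM-scaled CPM of 9 members in each HuH-7 library, with KO or EPZ-5676 in red left of sgNeg2 or DMSO in blue, lines at group means, and dotted lines between the IFN, no-IFN and drug sets. AKR1C1 and AKR1C2 were higher in KO and EPZ-5676 libraries than in their controls in all 3 sets, while ALDH5A1, ALDH6A1 and ALDH1A1 were lower in KO with IFN and under EPZ-5676.

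In sgNeg2 cells, IFN-treated libraries differed from untreated ones in most members tested, as in most genes: 8 rose and 15 fell of 39, where 33% and 34.7% of all 16448 genes rose and fell. The share that rose (20.5%) was below that of all genes and the share that fell (38.5%) close to it. The median was -0.32 over the members and -0.06 over all genes. GSTA1 averaged 18.4 ± 0.771 CPM with IFN and 84.3 ± 4.06 CPM without (log2 change -2.20 ± 0.17, edgeR adjusted p = 1.18e-07), ALDH5A1 18.8 and 66.1 CPM (-1.81), ALDH6A1 43.9 and 135 CPM (-1.62) and AKR1C1 31.3 and 70.6 CPM (-1.17). ALDH1A2, which makes retinoic acid, had 0.478 and 3.04 CPM (-2.66), and GSTA2 0.454 and 3.53 CPM (-2.95). ALDH16A1 (1.37), GSTK1 (0.99), ALDH1B1 (0.94) and AKR1A1 (0.83) rose. IFN cannot be told apart here from the depth and the histone and small RNA content given above, which separate the same libraries. Set against the DMSO libraries in place of untreated sgNeg2 cells, the sign turned for ALDH2 (-0.14), ALDH4A1 (-0.20), ALDH7A1 (-0.0108) and ALDH18A1 (-0.16), all called as rises against untreated cells. The same 4 genes had changes of 0.32, 0.68, 0.44 and 0.27 against untreated sgNeg2 cells. Without sgNeg2 replicate 2, the calls of ALDH2 (0.25), ALDH4A1 (0.55) and ALDH18A1 (0.18) ended, the last also without IFN sgNeg2 replicate 2 (0.26). The fall of GSTM3 (-1.06) was no longer called when untreated replicate 2 (-0.85) or either IFN-treated library (-1.13 and -0.995) was left out.

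In unedited HuH-7 cells under EPZ-5676, AKR1C1, AKR1C2 and AKR1C3 were higher and 6 of 16 tested ALDH genes lower than in DMSO. Of 38 tested members 6 rose and 9 fell, where 15.1% and 18.6% of all 15023 genes tested rose and fell, so that the members' shares (15.8% and 23.7%) were near those of all genes. The medians were 0.03 over the members and 0.01 over all genes. By family 1 of 12 GST genes rose and 3 fell, 3 of 10 AKR genes rose, and 2 of 16 ALDH genes rose and 6 fell. These libraries are separate from the guide libraries.

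The AKR rises under EPZ-5676 were the 3 tested AKR1C genes. AKR1C1 had 138, 134 and 140 CPM under EPZ-5676, against 95.4, 94.2 and 99.2 CPM in DMSO (log2 change 0.51 ± 0.03, edgeR adjusted p = 2.77e-27). AKR1C2 had 8.06, 7.80 and 7.10 CPM, against 3.95, 4.40 and 4.37 CPM in DMSO (0.85 ± 0.12, edgeR adjusted p = 4.29e-08). AKR1C3 had 2.06, 2.59 and 2.40 CPM, against 1.18, 1.33 and 0.728 CPM (1.13 ± 0.24, edgeR adjusted p = 8.37e-05). The lowest treated library lay above the highest DMSO library for each. AKR1B10, called in KO cells with IFN, averaged 0.419 ± 0.135 CPM under EPZ-5676 and 0.345 ± 0.0691 CPM in DMSO and was not called, nor was ALDH8A1 (0.16 ± 0.13).

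ALDH genes under EPZ-5676 fell by small, tight steps. ALDH1A1 had 2663, 2673 and 2699 CPM, against 3359, 3322 and 3335 CPM in DMSO (log2 change -0.32 ± 0.01, edgeR adjusted p = 3.19e-48). ALDH6A1 (83.6 ± 0.203 and 106 ± 3.66 CPM; -0.35), ALDH18A1 (502 ± 6.64 and 611 ± 7.39 CPM; -0.28) and ALDH9A1 (127 ± 1.61 and 149 ± 4.74 CPM; -0.23) fell, as did ALDH5A1 (-0.18) and ALDH2 (-0.08). The 6 genes that fell were thus lower by at most 0.35. ALDH1L2 rose, with 15.04 ± 0.460 CPM under EPZ-5676 and 9.81 ± 0.379 CPM in DMSO (0.62 ± 0.08), and ALDH7A1 by 0.09. Among GST genes GSTA1 (-0.25), GSTO1 (-0.11) and GSTP1 (-0.06) fell and GSTA2 rose (0.46). The call of GSTA2 ended without EPZ-5676 replicate 2 (0.34) or 3 (0.43), and that of ALDH2 without EPZ-5676 replicate 1 (-0.06). Hepatocyte markers summed to 15908 to 15986 CPM under EPZ-5676 and 17902 to 18015 CPM in DMSO, and their part was not tested.

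**Figure D5:**
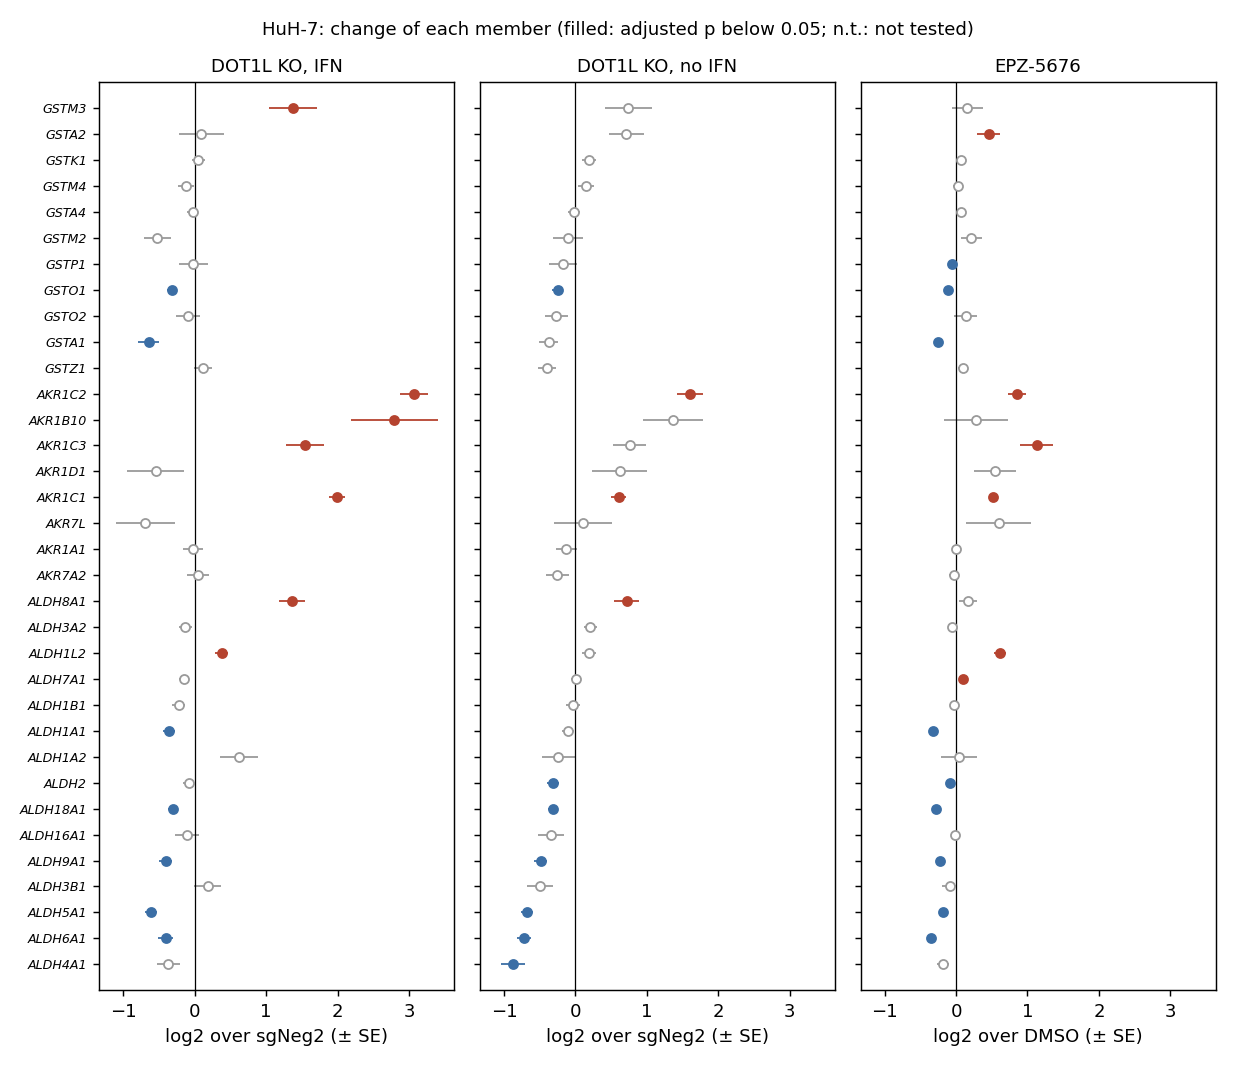
Points show log2 changes with standard errors for HuH-7 members with a mean of at least 1 CPM in the libraries without IFN, for KO over sgNeg2 with IFN, KO over sgNeg2 without IFN and EPZ-5676 over DMSO, with rises in red, falls in blue and uncalled changes open. AKR1C1 (1.99, 0.61 and 0.51) and AKR1C2 (3.07, 1.61 and 0.85) lie right of 0 in all 3 panels, and ALDH5A1 (-0.62, -0.68 and -0.18) and ALDH6A1 (-0.41, -0.72 and -0.35) left.

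Other genes of the same pathways were read beside the members, as counts. Of 27 NRF2 pathway genes, which include antioxidant enzymes and exporters, 13 rose and 5 fell in Hep53.4, 2 rose and 18 fell in Hepa1-6, and 4 rose and 11 fell of 26 in LLC. Over all genes the shares that rose and fell were 19.4% and 19.7% in Hep53.4, 14.5% and 18.3% in Hepa1-6, and 16% and 17.5% in LLC. The median log2 changes of the list were 0.10, -0.19 and -0.11. The 5 falls in Hep53.4, beside its 13 rises, were those of Mafg, Txnrd1, Osgin1, G6pdx and Abcc3. Nqo1, a quinone reductase often used as an NRF2 readout, averaged 9.25 ± 0.908 CPM in KO and 5.17 ± 0.171 CPM in sgNeg2 Hep53.4 cells (log2 change 0.84 ± 0.12, edgeR adjusted p = 7.30e-07). It averaged 86.7 ± 2.60 CPM in KO and 125 ± 6.50 CPM in sgNeg2 Hepa1-6 cells (-0.52 ± 0.04), and 49.5 ± 5.44 CPM in KO and 71.5 ± 2.33 CPM in sgNeg2 LLC cells (-0.53 ± 0.07). The effect of Hep53.4 minus that of Hepa1-6 was 1.38 ± 0.13, and minus that of LLC 1.35 ± 0.13. In HuH-7 1 of 27 rose and 2 fell after KO without IFN, with the same counts with IFN, and 2 rose and 15 fell under EPZ-5676. Over all genes the shares were 6.95% and 4.38% without IFN, 7.11% and 5.27% with IFN, and 15.1% and 18.6% under EPZ-5676. IFN-treated sgNeg2 cells had 16 rises and 4 falls of 27, where 33% and 34.7% of all genes rose and fell, and IFN cannot be told apart there from the library differences given above.

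Genes that make or use glutathione gave 11 rises and 5 falls of 25 tested in Hep53.4, 7 and 7 of 26 in Hepa1-6 and 4 and 7 of 24 in LLC, to be read against the all-gene shares of 19.4% and 19.7%, 14.5% and 18.3%, and 16% and 17.5% in these lines. Chac1, which degrades glutathione, fell in Hep53.4 (19.9 ± 0.850 CPM in KO, 31.4 ± 1.40 CPM in sgNeg2; log2 change -0.66 ± 0.06) and in LLC (8.43 ± 0.432 and 17.3 ± 0.198 CPM; -1.04 ± 0.08). In Hepa1-6 Gclc, the catalytic subunit of the rate-limiting step of glutathione synthesis, averaged 167 ± 4.05 CPM in KO and 259 ± 1.22 CPM in sgNeg2 cells (-0.63 ± 0.04), and the cystine importer Slc7a11 fell by 0.64 on the log2 scale. In HuH-7 the counts were 3 rises and 3 falls of 26 after KO without IFN, 2 and 3 with IFN, and 4 and 6 under EPZ-5676, beside all-gene shares of 6.95% and 4.38%, 7.11% and 5.27%, and 15.1% and 18.6%.

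Retinoid, alcohol and xenobiotic genes, whose products share substrates with the ALDH and AKR families, moved in both directions. Retinoid pathway genes had 5 rises and 3 falls of 12 in Hep53.4, 1 and 6 of 12 in Hepa1-6 and 6 and 4 of 15 in LLC, beside the same all-gene shares of 19.4% and 19.7%, 14.5% and 18.3%, and 16% and 17.5%. Rdh10, which makes retinal from retinol, averaged 204 ± 5.79 CPM in KO and 293 ± 3.14 CPM in sgNeg2 Hep53.4 cells (-0.52 ± 0.03), and Tgm2 averaged 7.21 ± 0.955 CPM in KO and 2.41 ± 0.302 CPM in sgNeg2 LLC cells (1.58 ± 0.15). In HuH-7 3 rose and 1 fell of 14 after KO without IFN, where 6.95% and 4.38% of all genes did. CRABP2, which carries retinoic acid to its receptor, averaged 18.3 ± 1.60 CPM in KO and 9.64 ± 0.0442 CPM in sgNeg2 cells (0.93 ± 0.17), a call that ended without sgNeg2 replicate 1 (0.92) or replicate 2 (0.89). Under EPZ-5676 it was at 24.8 ± 0.536 CPM, against 13.3 ± 0.834 CPM in DMSO (0.90 ± 0.07).

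Among alcohol dehydrogenases ADH1C averaged 9.37 ± 2.28 CPM in KO and 2.59 ± 0.536 CPM in sgNeg2 HuH-7 cells (1.85 ± 0.26, edgeR adjusted p = 0.000483), and 2.43 ± 0.260 CPM under EPZ-5676 and 1.14 ± 0.117 CPM in DMSO (1.09 ± 0.22). Adh1 averaged 3.63 ± 0.226 CPM in KO and 0.926 ± 0.165 CPM in sgNeg2 Hepa1-6 cells (1.96 ± 0.23). Of 12 xenobiotic receptor genes and targets 3 rose and 1 fell in KO HuH-7 cells without IFN, where 6.95% and 4.38% of all genes rose and fell. CYP2B6 averaged 2.80 ± 0.380 CPM in KO and 0.493 ± 0.0342 CPM in sgNeg2 cells (2.50 ± 0.30), and CYP1B1 19.1 ± 1.43 CPM and 9.09 ± 2.02 CPM (1.07 ± 0.15). NR1I2, the pregnane X receptor, averaged 4.87 ± 0.447 CPM and 1.29 ± 0.313 CPM (1.92 ± 0.34), a call that ended without sgNeg2 replicate 2 (1.64). In Hepa1-6 2 rose and 4 fell of 11, where 14.5% and 18.3% of all genes did. Cyp1a1 averaged 138 ± 5.17 CPM in KO and 261 ± 5.87 CPM in sgNeg2 cells (-0.92 ± 0.04).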

How the data were processed

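RNA from cultured cells was extracted with a column kit and sequenced, per the labels' protocols. The authors deposited whole-number counts per gene symbol for each library. Per the submitters' processing notes, HISAT2 2.2.1, Trim Galore, DESeq2 1.36.0, SAMtools 1.9 and the builds mm10 and hg38 were used, in roles not given in the sources used here. Lines with no gene symbol (1721 in each Hepa1-6 sgNeg2 file, 1 in each Hep53.4 sgNeg2 file) held no counts and were dropped.

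Groups follow the labels. Members and lists were chosen with earlier results of these data known. The tests were those of edgeR 4.0.16 in R 4.3.3: filterByExpr (minimum count 10, minimum total 15), TMM scaling, robust quasi-likelihood fits and F tests, with Benjamini-Hochberg adjustment over all genes tested and a threshold of 0.05. The 12 HuH-7 guide libraries shared 1 fit, the 6 drug libraries and each mouse line's 6 had their own, and the 18 mouse libraries were fitted jointly for differences between lines. The procedure was tested on simulated data. CPM are TMM-scaled counts per library size, with SDs over libraries, and fold changes are on the log2 scale with standard errors. CPM per kb used the union of GENCODE v29 exons. The genes named are a panel of members, the 6 largest rises and falls per comparison at 1 CPM or more, and up to 3 called genes per related list; other members appear where members are accounted for. Alternatives were RLE scaling, no filter, DESeq2 1.42.0, guides as separate groups, each guide alone, a replicate block, other sets of libraries in the fit, the DMSO libraries as control for IFN, and each library left out in turn. Floors cover counting error only.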

Additional observations from a re-analysis of the deposited data

Results flagged for a closer look

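In 5 of 82 groups of 4 KO libraries examined, 1 library lay far from the others by Dixon's criterion, and chance alone flags about 1 group in 20. Aldh1l1 was at 36.4 CPM in Hepa1-6 sg1 replicate 2, above the other KO libraries. Akr1b8 was at 177 CPM in Hep53.4 sg2 replicate 1, and Gstm2 at 14.7 CPM in Hep53.4 sg2 replicate 2, both below the others. Aldh5a1 was at 17.4 CPM in LLC sg1 replicate 1, and Gstm6 at 1.08 CPM in LLC sg2 replicate 2, again below the others. No explanation was tested.

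The KO effect differed between settings, by the test of the difference itself, for AKR1C1 (1.38) and AKR1C2 (1.46) in HuH-7 with minus without IFN, all on the log2 scale.

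It differed between Hep53.4 and Hepa1-6, with a KO or sgNeg2 mean of at least 1 CPM in both lines, for Aldh1a7 (2.00), Akr1b7 (1.90), Gstm7 (1.54), Gstm6 (1.37), Akr1c18 (1.08), Gsta4 (1.08), Akr1c19 (1.04), Gstm1 (1.04), Akr1b8 (0.59), Gstm2 (0.59), Gstm4 (0.59), Aldh1a1 (0.58), Aldh4a1 (0.43), Aldh2 (0.40), Akr7a5 (0.34), Gstm5 (0.24), Aldh3a2 (0.20), Gsto1 (0.20) and Aldh18a1 (-0.39). The Gstm5 difference was not called without Hep53.4 sgNeg2 replicate 1 (0.20) or 2 (0.27), sg1 replicate 1 (0.22), sg2 replicate 1 (0.24) or sg2 replicate 2 (0.22), nor without Hepa1-6 sgNeg2 replicate 2 (0.18), sg2 replicate 1 (0.22) or sg2 replicate 2 (0.22).

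Between Hep53.4 and LLC it differed for Gstm7 (1.35), Gsta4 (0.97), Gstt3 (0.88), Aldh1l2 (0.63), Aldh5a1 (0.62), Gstm1 (0.44), Gstm5 (0.42), Gstm2 (0.42), Gstz1 (0.35), Akr7a5 (0.32), Aldh2 (0.22), Gsto1 (0.19), Aldh9a1 (0.18), Gstp1 (0.15), Akr1a1 (0.14), Aldh18a1 (-0.21) and Aldh3a1 (-1.21). Gstp1 was not called without Hep53.4 sgNeg2 replicate 1 (0.11), sg1 replicate 1 (0.15) or 2 (0.13), nor without LLC sgNeg2 replicate 1 (0.15) or 2 (0.15) or sg1 replicate 1 (0.13) or 2 (0.13). Akr1a1 lost its call without Hep53.4 sgNeg2 replicate 1 (0.12) or 2 (0.15), its sg1 replicate 1 (0.11) or 2 (0.12), or LLC sgNeg2 replicate 1 (0.13) or 2 (0.14). For Aldh9a1 this held without Hep53.4 sgNeg2 replicate 2 (0.16) or LLC sgNeg2 replicate 1 (0.15). The values of Gstt3 and Aldh3a1 without single libraries are given with the comparison.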

How the results depend on the processing

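Counts of called members kept within 1.5 times the value reported under most alternatives, and of the values recomputed for single genes 6613 kept direction and side of the threshold, 336 lost and 109 gained a call and 9 changed sign. After KO without IFN, 17 members were called with sg1 and sg2 as separate groups, against 10 pooled. Over all genes 12.5% rose and 13.1% fell with separate groups, against 6.95% and 4.38% pooled. After KO with IFN, a fit of those 6 libraries alone called 6, against 14. Over all genes 5.35% rose and 1.22% fell in that fit, against 7.11% and 5.27%. The difference between the KO effects with and without IFN was called for 6 members with guides as groups, 4 with sg1 alone and 10 with sg2 alone, against 2. Over all genes 0.207% rose and 0.298% fell with the guides pooled. All-gene shares for the other settings are not set beside these counts. The larger counts therefore cannot show whether members gained calls beyond other genes, and nothing about the members is concluded from them. The causes were not tested. Leaving out 1 library at a time gave 4 to 10 members after KO without IFN, 5 to 14 with IFN, 20 to 23 for IFN in sgNeg2 cells, 1 to 2 for the difference between KO effects, 14 to 17 under EPZ-5676, 14 to 19 in Hepa1-6, 22 to 28 in Hep53.4 and 11 to 16 in LLC. It gave 20 to 26 for Hep53.4 minus Hepa1-6 and 15 to 23 for Hep53.4 minus LLC. Calls over all genes also became fewer whenever an sgNeg2 library was left out, which kept a single library in that control group. With the DMSO libraries as control for IFN, the sign turned for GSTO1 (-0.31), ALDH1L2 (0.27), ALDH2 (-0.14), ALDH4A1 (-0.20), ALDH7A1 (-0.0108), ALDH9A1 (-0.30), ALDH18A1 (-0.16) and ADH5 (-0.45). For Hep53.4 minus LLC, Akr1cl ran from -8.75 to 0.53, the last without Hep53.4 sgNeg2 replicate 2, the library that held nearly all of its Hep53.4 counts. With RLE scaling, 6.42% of all genes rose and 6.17% fell after KO without IFN, against 6.95% and 4.38% with TMM.

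With the replicate number as a block the called members were 9 after KO without IFN, 14 with IFN, 23 for IFN in sgNeg2 cells, 2 for the difference between KO effects, 16 under EPZ-5676, 19 in Hepa1-6, 28 in Hep53.4 and 13 in LLC. The block gave 23 for Hep53.4 minus Hepa1-6 and 22 for Hep53.4 minus LLC. Deviations of same-numbered libraries from their group means had correlations from -0.061 to 0.062. They were all positive in Hepa1-6 (0.0303 to 0.0625) and in the drug set (0.0172 to 0.0361), and of both signs in the other sets. Values this small, over all tested genes, cannot decide whether same-numbered libraries shared a batch. Members under 1 CPM rest on few counts, and members below the filter were too low to test at this depth.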
